A study of Mus musculus with 12 samples.

Results

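Liver RNA of leptin-deficient ob/ob mice given FH was compared with liver RNA of ob/ob mice given the empty vector, in 6 of the 12 libraries of a study of fumarate hydratase in fatty liver. The members were chosen by their labels alone: the 3 libraries titled AAV8-FH and the 3 titled AAV8-vector among the ob/ob mice fed a high-fat diet (HFD). Both groups were ob/ob, which make no functional leptin, were injected by the tail vein at 6 to 8 weeks of age with an AAV8 virus described as liver-specific, and were kept on the HFD for 1 month. The promoter that drives the delivered FH, the species of that sequence and the number of mice behind each library were not given in the sources used here, and the p-values therefore reflect variation among these libraries only. Liver is the labelled tissue and hepatocyte the labelled cell type, with RNA taken by TRIzol from tissue and sequenced from a stranded mRNA library.

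Fumarate hydratase (gene Fh1 in mice) turns fumarate into malate in the citric acid cycle, and a cytosolic form takes up fumarate made by the urea cycle and purine turnover. Citrate that leaves the mitochondria is cut by ATP citrate lyase to the acetyl-CoA from which the liver builds fatty acids, and in obesity high insulin and sugar drive that pathway through the transcription factors SREBP-1c and ChREBP. Stored triglyceride leaves a lipid droplet by cytosolic lipases or by lipophagy, in which an autophagosome engulfs part of the droplet and hands it to the lysosome. ULK1 is the kinase that starts autophagosome formation.

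The FH and vector groups differed in more than the delivered gene. Xist, the RNA that coats the inactive X chromosome of females, ranged from 2242 to 4992 counts with FH and from 2 to 10 counts with vector. The Y-linked genes Ddx3y, Eif2s3y, Kdm5d and Uty together had 0 counts in each FH library and 4001 to 5181 in each vector library. The FH libraries thus held female and the vector libraries male transcripts, and sex and FH delivery cannot be told apart in any comparison that follows. For that reason the genes described are autosomal, although autosomal liver genes differ between the sexes too. The libraries also differed in make-up: totals were 12573267 to 14496559 counts in the vector group and 21632289 to 23506015 in the FH group, albumin (Alb) took 4.48 to 5.57% of counts against 9.74 to 11.1%, and long noncoding RNA took 0.926 to 1.03% against 0.283 to 0.315%. At an equal depth of 12573267 counts, 21114 to 21388 genes had a count with vector and 17757 to 18508 with FH. Vector library 2 stood apart from its group: its log-scale correlation with vector 1 and vector 3 was 0.953 and 0.946, while those libraries correlated at 0.982 with each other and the FH libraries at 0.987 to 0.990. Results were therefore recomputed without vector 2.

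Fh1, on chromosome 1, was 156, 119 and 130.2 CPM with vector and 653, 652 and 854 CPM with FH, where CPM are counts per 1000000 of a library size scaled by the trimmed mean of M-values (TMM) and libraries 1, 2 and 3 follow in that order throughout. The 3 FH libraries lay above the 3 vector libraries, a 5.33-fold difference (log2 fold change 2.42, SE 0.18, adjusted p = 1.35e-04). The log2 fold change was 2.35 without vector 2 and 1.86 on plain library totals. Reads of the delivered sequence and of the mouse's own Fh1 cannot be told apart in a table of counts per gene.

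Over the whole transcriptome, 7146 of 13773 autosomal genes tested (51.9%) passed an adjusted p of 0.05 in edgeR's quasi-likelihood test with Benjamini-Hochberg adjustment. Of all tested, 3332 genes (24.2%) rose with FH and 3814 (27.7%) fell, and by 2-fold or more 1068 (7.75%) rose and 2334 (16.9%) fell. These shares are the background against which every list below is read. The balance of the calls rests on the scaling. With plain library totals the median log2 fold change of all autosomal genes was -0.57 in place of -0.02, 933 genes (6.77%) rose and 7020 (51.0%) fell, and 775 of the genes called under TMM changed sign. List results are therefore given under both scalings. Without vector 2, 3821 of 14484 autosomal genes (26.4%) rose and 4115 (28.4%) fell, 54.8% in all. All 3 FH libraries lay above all 3 vector libraries in 30.1% of the autosomal genes and below them in 32.1%. Of the 198 tested genes named in the text 172 passed with all 6 libraries, and 171 of those passed in the same direction without vector 2; the exceptions are named where they occur. On library totals 19 of the 172 lost their call and 7 named genes that had not passed did so, which is stated beside each. The authors' counting may or may not have used strand (not given in the sources used here), and 56 of the named genes have an annotated gene on the opposite strand, with which they could share reads.

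**Figure D1:**
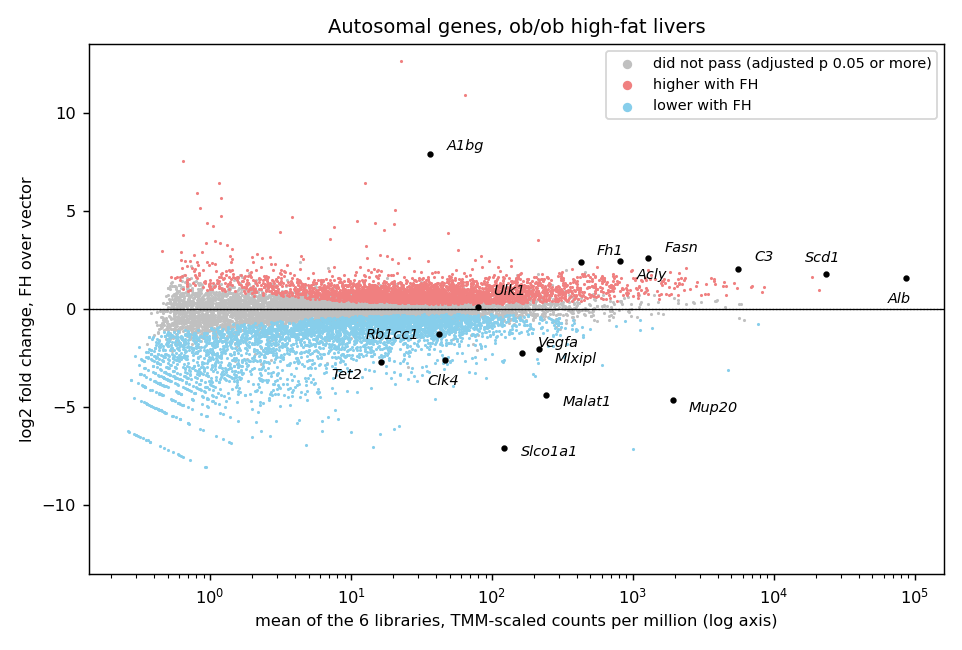
Log2 fold change of FH over vector (vertical) against the mean TMM-scaled CPM of the 6 libraries (horizontal, log axis) for the 13773 autosomal genes tested, with 1 point a gene. Red points rose and blue points fell at an adjusted p under 0.05, grey points did not pass, the line marks equal levels, and some named genes are marked in black.

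Genes of the citric acid cycle and fumarate metabolism were higher with FH in most cases. Of 27 tested, Fh1 included, 21 rose and 1 fell, with a median log2 fold change of 0.86 against -0.02 for all autosomal genes. Without vector 2 21 rose and 2 fell, and on library totals 12 rose and 5 fell (median 0.30). Mitochondrial malate dehydrogenase (Mdh2), the enzyme after fumarate hydratase in the cycle, was 133, 112 and 153 CPM with vector and 309.7, 306 and 311 CPM with FH (log2 fold change 1.22, SE 0.14, adjusted p = 4.39e-04). The groups did not overlap for Mdh2. Sdha, the catalytic subunit of succinate dehydrogenase, which makes fumarate, was 392, 346 and 388 CPM with vector and 743, 716 and 662 CPM with FH, 1.88-fold higher with FH (adjusted p = 9.61e-04). Sdhd, a membrane anchor of the same complex, was the member that fell, from 314, 300.3 and 319.8 CPM to 236, 202 and 212 CPM (-0.52, SE 0.12, adjusted p = 0.00726), a call that was lost without FH 2 or FH 3 (adjusted p = 0.0518 to 0.055). Got2, the mitochondrial aspartate transaminase, was 2.94-fold higher, and cytosolic aconitase Aco1 2.43-fold higher, both with no overlap between groups. Of 36 nuclear-encoded subunits of oxidative phosphorylation, 20 rose and 5 fell (median 0.38). On library totals 5 rose and 15 fell (median -0.18), where 51.0% of all autosomal genes fell (median -0.57). Without FH 1, 13 of these subunits rose, and without vector 1, FH 2 or FH 3 0 fell. The complex I subunit Ndufv1 was 1.92-fold higher and the complex III core subunit Uqcrc1 1.87-fold higher, while the small subunits Cox7a2 and Ndufa4 were 1.501-fold and 1.63-fold lower. The Cox7a2 call was lost without vector 1, FH 2 or FH 3 (adjusted p = 0.0662 to 0.0951), and the Ndufa4 call without vector 1, FH 2 or FH 3 (adjusted p = 0.0679 to 0.0922).

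The enzymes that make fatty acids from citrate were higher with FH. Of 13 tested genes of palmitate synthesis and NADPH supply 13 rose and 0 fell (median log2 fold change 1.67). Without vector 2, 13 rose, and on library totals 9 rose and 0 fell (median 1.11). On library totals without vector 2, 10 rose and 0 fell (median 0.80). Acly, ATP citrate lyase, was 248, 221 and 288 CPM with vector and 1152, 1469.8 and 1516 CPM with FH, and the lowest FH library stood well above the highest vector library (log2 fold change 2.45, SE 0.18, adjusted p = 1.35e-04). Acaca, acetyl-CoA carboxylase, which makes malonyl-CoA, was 118, 80.2 and 165 CPM with vector and 285, 471 and 354 CPM with FH (1.61, SE 0.29, adjusted p = 0.00264). Fasn, the fatty acid synthase that assembles palmitate, was 335, 244 and 498 CPM with vector and 2035, 2612 and 1978 CPM with FH, a 6.15-fold difference (log2 fold change 2.62, SE 0.28, adjusted p = 3.47e-04) and 5.38-fold without vector 2. The groups did not overlap in any of these 3 genes. Pgd, which makes NADPH in the pentose phosphate pathway, was 4.61-fold higher and Tkfc, which phosphorylates glyceraldehyde in fructose breakdown, 4.38-fold higher.

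Of 14 desaturases and elongases, 9 rose and 2 fell (median 1.14), with 5 and 2 on library totals (median 0.58); 5 rose and 0 fell without FH 2. Scd1, the desaturase that makes oleate, was 10174, 6359.8 and 15301 CPM with vector and 35553, 48076 and 26177 CPM with FH. Every FH library was above every vector library, a 3.45-fold difference (1.79, SE 0.39, adjusted p = 0.00652). Elovl6, which lengthens palmitate to stearate, was 143, 66.0 and 226 CPM with vector and 327, 417 and 356 CPM with FH (1.34, SE 0.38, adjusted p = 0.0206), and its call was lost without vector 1 or FH 2 (adjusted p = 0.0614 to 0.0629) and on library totals (0.78, adjusted p = 0.112). The related Scd2 was 6.05-fold higher, from 6.07, 7.51 and 8.24 CPM to 26.6, 79.9 and 25.8 CPM, with FH 2 above the other FH libraries and a log2 fold change of 1.88 without FH 2 in place of 2.60. Elovl3, an elongase that is male-biased in mouse liver, was 80.5, 477 and 61.1 CPM with vector and 58.1, 18.5 and 20.2 CPM with FH. Vector 2 was the high library, and the log2 fold change of -2.68 (SE 0.85) was -1.11 without it and -3.39 without FH 1. Its call was lost without FH 2 or FH 3 (adjusted p = 0.102 to 0.108).

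Of 13 regulators of this pathway 4 rose and 2 fell (median 0.19), and on library totals 0 rose and 6 fell (median -0.36). Srebf1, the gene of SREBP-1, was 169.7, 88.1 and 112 CPM with vector and 227, 233 and 254 CPM with FH (0.95, SE 0.23, adjusted p = 0.00972), a call that was lost on library totals (0.38, adjusted p = 0.206). Mlxipl, the gene of ChREBP, was lower: 259.7, 512 and 262 CPM with vector and 82.2, 82.8 and 87.2 CPM with FH, 4.10-fold (-2.03, SE 0.27, adjusted p = 7.50e-04). No FH library reached the lowest vector library, and the fall without vector 2, the highest of the 6, was 3.06-fold. The list's count of rises was 2 without vector 1 or any 1 of the FH libraries. Nr1h3, the liver X receptor alpha, and Xbp1 were 1.31-fold and 1.29-fold higher under TMM, but their log2 fold changes were -0.17 and -0.20 on library totals. The Nr1h3 call was lost without vector 1, FH 1 or FH 2 (adjusted p = 0.0549 to 0.0597), and the Xbp1 call without FH 3 (adjusted p = 0.0568).

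**Figure D2:**
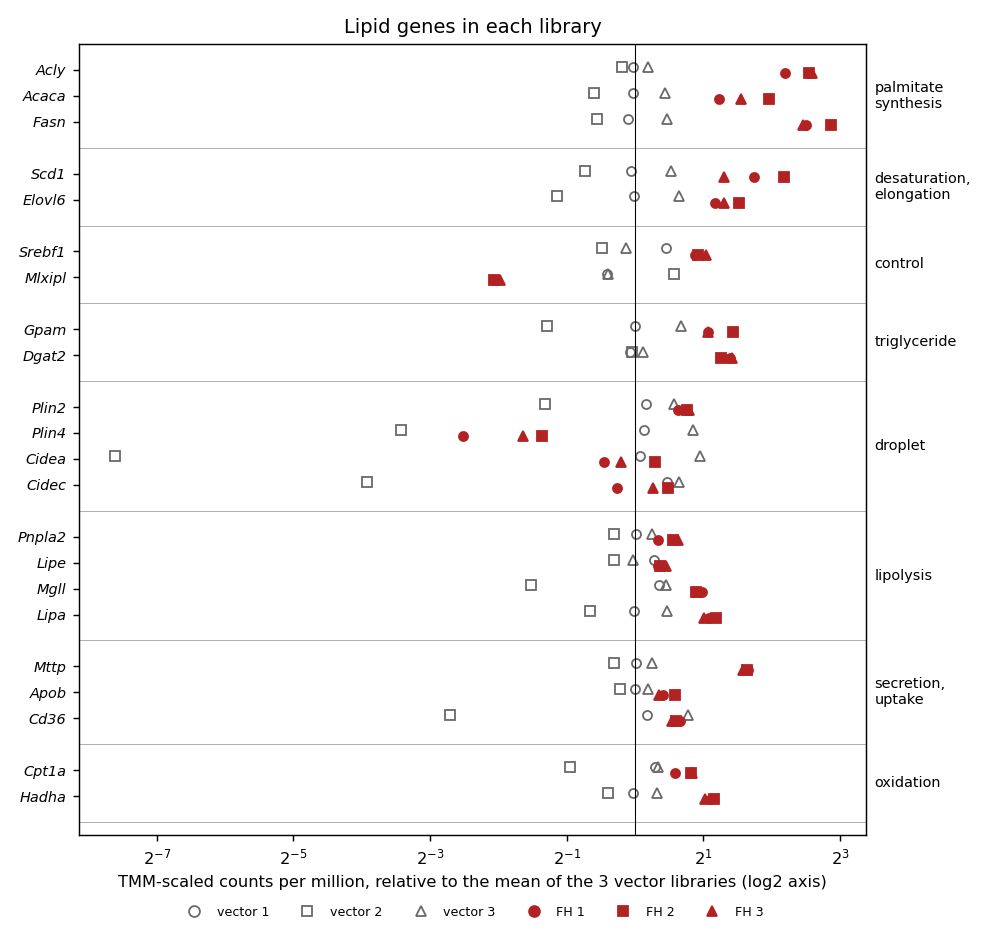
Lipid genes in each of the 6 libraries, as TMM-scaled CPM divided by the mean of the 3 vector libraries (log2 axis). Open grey symbols are vector libraries and filled red symbols FH libraries, with 1 shape a library number. Acly, Fasn and Scd1 lie to the right in all 3 FH libraries and Mlxipl to the left. Vector 2 (open squares) is the lowest vector library for each gene shown except Mlxipl and Dgat2.

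Triglyceride synthesis genes rose in part. Of 13 tested, 7 rose and 0 fell (median 0.84), with 2 rising and 1 falling on library totals (median 0.28). Without vector 2, 9 rose and 1 fell (median 0.59), and on library totals without vector 2, 2 rose and 3 fell (median 0.01). Dgat2, which adds the last acyl chain of triglyceride, was 209.8, 215 and 240.1 CPM with vector and 579, 529 and 591 CPM with FH (1.35, SE 0.13, adjusted p = 2.30e-04), with no overlap. Gpam, the mitochondrial acyltransferase of the first step, was 425, 173 and 677 CPM with vector and 889, 1154 and 889.6 CPM with FH (1.20, SE 0.43, adjusted p = 0.0453). Vector 2 was the lowest library for Gpam, and its call was lost without vector 1, FH 1, FH 2 or FH 3 (adjusted p = 0.0781 to 0.122) and on library totals (0.65, adjusted p = 0.222).

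Lipid droplet coat and fusion proteins were less uniform, and vector 2 was the low library for several of them. Of 17 tested, 4 rose and 0 fell (median 0.20). Without vector 2, 6 rose and 3 fell (median 0.07), 8 rose without vector 3, and 2 rose and 2 fell on library totals (median -0.36). On library totals without vector 2, 2 rose and 9 fell (median -0.51, against -0.60 for all autosomal genes). Plin2, the main droplet coat protein of hepatocytes, was 928, 335 and 1230.4 CPM with vector and 1279.8, 1403 and 1437 CPM with FH (0.72, SE 0.40, adjusted p = 0.168) and did not pass, although the groups did not overlap. The log2 fold change of Plin2 was 0.37 without vector 2 (adjusted p = 0.074) and 1.14 without vector 3, where it passed (adjusted p = 0.0458). Plin4 was 124, 10.497 and 203 CPM with vector and 19.6, 43.7 and 36.1 CPM with FH (-1.76, SE 0.83, adjusted p = 0.111). It did not pass with all 6 libraries under TMM, and fell without vector 2 (-2.29, adjusted p = 2.66e-04) and on library totals (-2.31, adjusted p = 0.0473). Cidea and Cidec help droplets to fuse and grow. Cidea was 36.2, 0.176 and 66.8 CPM with vector and 24.99, 42.3 and 29.8 CPM with FH and did not pass (-0.09, SE 1.05, adjusted p = 0.951). Cidec was 98.2, 4.69 and 111 CPM with vector and 59.2, 99.5 and 85.5 CPM with FH and did not pass either (0.19, SE 0.83, adjusted p = 0.862). In both, vector 2 was far below the other 5 libraries. Cideb, which loads lipid onto very-low-density lipoprotein, was 6.50-fold higher, from 0.959, 1.41 and 1.15 CPM to 9.22, 4.85 and 8.95 CPM, and the seipin gene Bscl2 2.25-fold higher. Of 10 adipocyte markers, among them Pck1, Lipe, Cidea and Cidec, which were also read here as liver genes, 6 were tested. Of those, 1 rose and 1 fell, or 0 and 2 on library totals. The summed level of the 10 was 1538 CPM of library total in vector 2, the lowest of the 6 libraries. It was 1722 to 2322 in the other vector libraries and 1998 to 2116 with FH. Most of this sum was Pck1 in every library, so it says little of adipocytes. Fabp4 was also lowest in vector 2 among the vector libraries. The defining markers Adipoq and Plin1, too low to be tested, went the other way, with 46 and 18 counts in vector 2 against 0 to 1 in each of the other 5 libraries. The part of adipocyte RNA in these results was not tested.

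The enzymes that hydrolyse stored lipid rose or did not pass under TMM. Of 16 tested, 8 rose and 0 fell (median 0.76), and on library totals 2 rose and 1 fell (median 0.20). Without vector 2, 10 rose and 0 fell (median 0.58), and on library totals without vector 2, 5 rose and 1 fell (median -0.01). Pnpla2, adipose triglyceride lipase, was 54.5, 43.7 and 64.1 CPM with vector and 68.6, 79.9 and 83.5 CPM with FH, 1.43-fold higher (adjusted p = 0.0257), and its log2 fold change was -0.04 on library totals. The Pnpla2 call was lost without vector 1, FH 2 or FH 3 (adjusted p = 0.0628 to 0.0752). Lipa, the acid lipase of the lysosome and the enzyme that digests lipid delivered by lipophagy, was 267, 171 and 373 CPM with vector and 573, 613 and 545 CPM with FH (1.09, SE 0.26, adjusted p = 0.00953). The groups did not overlap for Lipa, and its log2 fold change on library totals was 0.53 (adjusted p = 0.108). Lipe, hormone-sensitive lipase, was 7.67, 5.10 and 6.17 CPM with vector and 7.97, 8.10 and 8.65 CPM with FH (adjusted p = 0.117) and passed only without vector 1 among the libraries left out (0.56, adjusted p = 0.0475). Mgll, monoglyceride lipase, was 288, 78.6 and 311 CPM with vector and 444, 419 and 423 CPM with FH (0.92, SE 0.44, adjusted p = 0.111), and rose by 1.45-fold without vector 2 (adjusted p = 0.00342). Pnpla3, whose human variant is tied to fatty liver, was 2.75, 0.762 and 6.92 CPM with vector and 6.38, 5.67 and 3.70 CPM with FH and did not pass (adjusted p = 0.458; 0.0359 without vector 3). Of the carboxylesterases, Ces1g was 3.44-fold and Ces2e 2.74-fold higher, within families of near-identical copies whose reads the counting could split.

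Of 23 genes of mitochondrial fatty acid oxidation, 8 rose and 1 fell (median 0.52, or 0.28 without vector 2), while 5 rose and 4 fell on library totals (median -0.04). On library totals without vector 2, 5 rose and 13 fell (median -0.30, against -0.60 for all autosomal genes). Cpt1a, the carnitine acyltransferase that admits fatty acids to mitochondria, was 472, 200.4 and 485 CPM with vector and 580.3, 683 and 689 CPM with FH. It did not pass in edgeR with all 6 libraries (0.75, SE 0.31, adjusted p = 0.0754), passed in DESeq2 with the same 6 (adjusted p = 0.0173), and passed in edgeR without vector 2 (0.46, adjusted p = 0.0131) or without vector 3 (adjusted p = 0.0471). Hadha, of the trifunctional protein of the beta-oxidation spiral, was 301, 233 and 383 CPM with vector and 662, 682 and 623 CPM with FH (1.10, SE 0.19, adjusted p = 0.00234). Cpt2 and the acyl-CoA synthetase Acsl5 were 2.03-fold and 3.26-fold higher, and the isomerase Eci2 was 1.53-fold lower, a call lost without FH 2 or FH 3 (adjusted p = 0.0541 to 0.0676). Of 7 genes of ketone body synthesis and export, 3 rose and 1 fell; on library totals 1 rose and 2 fell, and without vector 1, FH 1 or FH 3 1 rose. Of 25 peroxisomal genes, 10 rose and 1 fell (median 0.34), against 2 and 5 on library totals (median -0.23), and 3 fell without vector 2. On library totals without vector 2, 2 of the peroxisomal genes rose and 14 fell (median -0.29). The nuclear receptor Ppara was 143, 78.8 and 164 CPM with vector and 113, 165 and 113 CPM with FH and did not pass (adjusted p = 0.962). Of 16 genes of its list, 2 rose and 2 fell, 5 rose and 3 fell without vector 2, 5 rose without vector 3, and 1 rose and 3 fell on library totals. The omega-hydroxylase Cyp4a10 was 2.85-fold higher, a call lost on library totals (0.94, adjusted p = 0.0566), and its close copy Cyp4a32 2.58-fold lower. The coactivator Ppargc1a was 1.66-fold lower, a call lost without vector 1, vector 3, FH 1, FH 2 or FH 3 (adjusted p = 0.0607 to 0.126), and its log2 fold change of -0.73 was -0.42 without vector 1.

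Of 19 cholesterol synthesis genes 11 rose and 2 fell (median 0.85). The rises numbered 13 without vector 2, 6 without vector 1, 5 without FH 1 and 5 without FH 2, and on library totals 5 rose and 2 fell (median 0.29). Dhcr7, an enzyme of the last steps of the pathway, was 3.78-fold higher, and Idi1 and Ggps1, which act on isoprenoids, were 2.55-fold and 3.16-fold lower. Srebf2, which controls the pathway, was 33.2, 39.5 and 38.3 CPM with vector and 74.0, 79.2 and 65.2 CPM with FH (0.98, SE 0.12, adjusted p = 5.27e-04). The FH libraries lay above the vector libraries in Srebf2. Of 11 genes of sterol sensing and uptake 6 rose and 0 fell, with 1 and 1 on library totals.

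Of 20 genes of lipoprotein assembly and apolipoproteins, 10 rose and 1 fell (median 0.94), against 7 and 2 on library totals (median 0.38). Mttp, which loads triglyceride onto apolipoprotein B, was 208, 168 and 245 CPM with vector and 649, 645 and 619 CPM with FH (1.62, SE 0.16, adjusted p = 2.76e-04), and Tm6sf2, which enlarges those particles, was 2.74-fold higher. Apob itself was 3316, 2869.8 and 3809 CPM with vector and 4443, 5004 and 4231 CPM with FH and did not pass in edgeR (0.45, SE 0.18, adjusted p = 0.0718; 0.0499 without vector 3), while it passed in DESeq2 with all 6 libraries (adjusted p = 0.00638). Apoc2, the activator of lipoprotein lipase, was 5.90-fold lower, from 7.09, 4.46 and 5.30 CPM to 0.818, 0.441 and 1.55 CPM. Cd36, a fatty acid translocase that is higher in female than male mouse liver, was 338, 45.4 and 509.8 CPM with vector and 469, 451 and 431 CPM with FH and did not pass (adjusted p = 0.482), with vector 2 far below the other 5 libraries. The transporter Slc27a4 and the bile acyl-CoA synthetase Slc27a5 were 2.56-fold and 2.97-fold higher, and the binding protein gene Fabp4 was 1.59-fold lower with overlapping groups, a call lost without vector 1, vector 3, FH 1, FH 2 or FH 3 (adjusted p = 0.0558 to 0.139). Of 14 uptake and binding genes 3 rose and 2 fell, with 4 and 4 without vector 2 and 3 and 5 on library totals. Without vector 1, vector 3, FH 1 or FH 3, 0 fell. On library totals without vector 2, 4 rose and 8 fell (median -0.40, against -0.60 for all autosomal genes).

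The autophagy initiation genes were mixed, and the RNA of the kinase named in the study's title did not pass. Only RNA was measured in these libraries. The protein level, phosphorylation and activity of ULK1 and the rate of autophagy were not. Ulk1 was 73.2, 79.2 and 75.8 CPM with vector and 71.1, 83.1 and 91.6 CPM with FH, overlapping ranges with a log2 fold change of 0.11 (SE 0.12) and adjusted p = 0.484. On library totals Ulk1 was lower (-0.45, adjusted p = 0.0239), and without vector 2 its log2 fold change was 0.16 (adjusted p = 0.301). Of its partners in the initiation complex, Atg13 was higher, 40.3, 42.0 and 47.7 CPM with vector and 60.5, 68.1 and 70.2 CPM with FH (0.61, SE 0.11, adjusted p = 0.00286), and Rb1cc1, the gene of FIP200, was lower, 59.2, 58.2 and 61.7 CPM with vector and 23.4, 24.1 and 25.8 CPM with FH (-1.29, SE 0.09, adjusted p = 1.29e-04). The groups did not overlap in either, but the Atg13 call was lost on library totals (0.06, adjusted p = 0.709). Becn1 was 39.1, 34.4 and 34.8 CPM with vector and 39.4, 38.2 and 36.4 CPM with FH and did not pass under TMM (adjusted p = 0.544), but was lower on library totals (-0.49, adjusted p = 0.00477), while Pik3r4, another subunit of the same lipid kinase complex, was 2.12-fold higher. Of 18 initiation genes 7 rose and 2 fell (median 0.20). On library totals 1 rose and 10 fell (median -0.36), where 51.0% of all autosomal genes fell (median -0.57).

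Of 20 genes that build and close the autophagosome 6 rose and 5 fell (median 0.05), near the 24.2% and 27.7% of all autosomal genes, and on library totals 1 rose and 12 fell (median -0.52). Without vector 1, FH 2 or FH 3 3 fell. Map1lc3b, the gene of LC3B, was 136, 139 and 173 CPM with vector and 154, 154 and 149 CPM with FH (adjusted p = 0.886), and Gabarapl1 was 288, 351 and 345 CPM with vector and 365, 324 and 337 CPM with FH (adjusted p = 0.733). Neither passed under TMM, and the groups overlapped in both. Map1lc3b was lower on library totals (-0.53, adjusted p = 0.00656), as was Gabarapl1 on library totals (-0.50, adjusted p = 0.00745). Atg7, the activating enzyme for both, was 2.16-fold higher, from 32.6, 26.6 and 39.3 CPM to 71.1, 73.6 and 67.9 CPM, whereas Stx17, the syntaxin of lysosomal fusion, was 1.77-fold lower, from 53.0, 48.1 and 46.4 CPM to 29.2, 28.0 and 26.05 CPM. Of 15 cargo receptors 8 rose and 2 fell, against 1 and 6 on library totals. Sqstm1, the gene of p62, was 326, 317 and 444 CPM with vector and 759, 812 and 825 CPM with FH (1.14, SE 0.17, adjusted p = 0.00113), with no overlap between groups. Of the other receptors, Tex264 was 1.86-fold higher, a call lost on library totals (0.33, adjusted p = 0.0995), and Bnip3l and Retreg1, receptors for mitochondria and endoplasmic reticulum, were 1.47-fold and 1.52-fold lower, with the Retreg1 call lost without FH 3 (adjusted p = 0.0518).

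Most genes of the lysosome itself were higher with FH: 24 of 30 hydrolases and membrane proteins rose and 0 fell (median 0.90), 24 rose without vector 2, and 10 rose and 3 fell on library totals (median 0.34). Lamp1, the main membrane glycoprotein of lysosomes, was 392, 309.8 and 468 CPM with vector and 801, 829 and 792 CPM with FH (1.05, SE 0.17, adjusted p = 0.00185). The acid glucosidase Gaa was 2.58-fold and the glucosaminidase Naglu 2.35-fold higher, each with no overlap. Tfeb, the transcription factor of lysosomal genes, was 4.79, 4.22 and 3.92 CPM with vector and 5.51, 4.57 and 5.95 CPM with FH and did not pass (adjusted p = 0.204). Of 32 genes of the proton pump and of mTORC1 and TFEB control, 11 rose and 5 fell, with 2 and 15 on library totals and 3 falling without vector 3, FH 1 or FH 3. The pump subunit Atp6v0d1 was 1.91-fold higher and Fnip1, which with folliculin controls TFEB, 2.26-fold lower. Macrophages are rich in lysosomes, and 10 of 19 Kupffer cell and macrophage markers also rose with 0 falling (summed level 553 to 779 CPM of library total with vector and 645 to 944 with FH), while 2 rose and 2 fell on library totals. Their part in the lysosomal result was not tested.

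**Figure D3:**
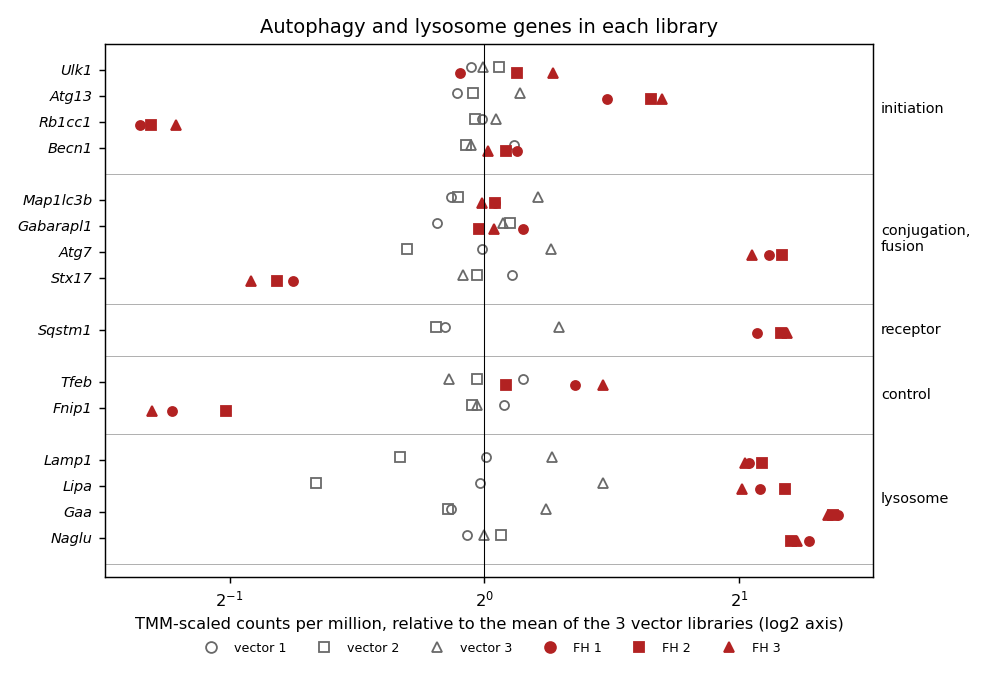
Autophagy and lysosome genes in each library, as TMM-scaled CPM divided by the mean of the 3 vector libraries (log2 axis). Open grey symbols are vector and filled red symbols FH libraries. Ulk1, Becn1, Map1lc3b and Gabarapl1 overlap between groups, Rb1cc1, Stx17 and Fnip1 lie lower in all 3 FH libraries, and Sqstm1, Atg7 and the 4 lysosomal genes lie higher.

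Promoters of lysosomal genes often hold the E-box CACGTG, the core of the element bound by TFEB, and those of Lamp1 and Naglu are shown because both genes rose here and carry it. The 250 bases before the start site were read for each listed start of a gene from RefSeq (build GRCm38.p6, sequences for 23 of the 30 autosomal members) and searched on both strands. CACGTG was present in 10 of the 23, and in 9 of the 19 that rose, against 6.86% of all 27025 genes with a sequence. The longer CACGTGAC, which contains the former, was present in 7 of the 23 against 2.11% of all genes. Since lysosomal promoters often hold this E-box, these shares do not bear on the rise, and Mcoln1 carried both runs without passing. Lamp1 held 4 matches and Naglu held 1, in capitals here, 5′ to 3′ on the gene's strand. A match is a run of letters and not a measured binding site.
Lamp1 (chr8:13158911-13159160, plus strand): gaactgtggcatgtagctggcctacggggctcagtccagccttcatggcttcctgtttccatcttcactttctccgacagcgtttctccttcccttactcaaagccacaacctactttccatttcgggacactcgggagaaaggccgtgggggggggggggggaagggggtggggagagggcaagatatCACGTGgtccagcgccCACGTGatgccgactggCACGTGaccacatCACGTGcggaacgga
Naglu (chr11:101069844-101070093, plus strand): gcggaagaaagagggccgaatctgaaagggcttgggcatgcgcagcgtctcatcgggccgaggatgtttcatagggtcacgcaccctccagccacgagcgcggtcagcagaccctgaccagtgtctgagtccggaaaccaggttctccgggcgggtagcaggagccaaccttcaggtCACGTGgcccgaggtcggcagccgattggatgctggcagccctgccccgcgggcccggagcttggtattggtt

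Chaperones of the endoplasmic reticulum, which fold secreted proteins, were higher with FH as a group: 17 of 22 chaperones and XBP1 targets rose and 0 fell (median 0.70); 19 rose without vector 2, while 7 rose and 2 fell on library totals (median 0.14). Hspa5, the gene of the chaperone BiP, was 464, 476 and 486 CPM with vector and 923, 836 and 909 CPM with FH (0.90, SE 0.13, adjusted p = 8.83e-04). Calreticulin (Calr) was 494, 539.8 and 525 CPM with vector and 1729.5, 1478 and 1532 CPM with FH (1.60, SE 0.14, adjusted p = 2.00e-04). In both genes all 3 FH libraries were above all 3 vector libraries. Pdia4, a disulfide isomerase, was 2.47-fold and Manf, a secreted stress factor, 1.75-fold higher, the Manf call being lost on library totals (0.25, adjusted p = 0.0922). Of 17 genes of the integrated stress response 5 rose and 2 fell, with 2 and 4 on library totals and 3 rising without vector 1, FH 2 or FH 3. Atf4, its main factor, was 1.48-fold lower, a call lost without FH 2 (adjusted p = 0.0598). Ddit3, the gene of CHOP, was 7.16, 9.56 and 6.68 CPM with vector and 3.82, 3.19 and 5.05 CPM with FH (-0.95, SE 0.24, adjusted p = 0.0109). Trib3, a target of both, was 6.71, 3.52 and 10.03 CPM with vector and 7.37, 7.27 and 13.1 CPM with FH and did not pass (adjusted p = 0.355). Fgf21, a hormone induced by starvation and stress, was 14.8, 2.17 and 32.8 CPM with vector and 11.6, 14.5 and 25.4 CPM with FH (adjusted p = 0.962). Atf5, another factor of the list, was 2.57-fold higher. Of 14 cytosolic heat shock chaperones, 6 rose and 0 fell, with 3 and 4 on library totals, among them Hsp90ab1 (2.13-fold higher) and the cochaperone Bag3 (2.15-fold higher).

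The ER stress response element, which is CCAAT and CCACG with 9 bases of any kind between them and binds the factors NF-Y and ATF6, was searched in the same way. It was found in 8 of 19 list members with a RefSeq sequence, and in 6 of the 14 that rose, against 35 of 27025 genes (0.130%). The list was chosen as ER chaperones and XBP1 targets, the kind of gene the element is named for. A share above that of all genes therefore does not bear on the rise, and Dnajc3 and Syvn1 carried the element without passing. Its first 5 letters alone, CCAAT, were present in 37.5% of all genes. Hspa5 and Calr are shown because they rose and carry the element, in capitals, with that of Calr on the reverse strand.
Hspa5 (chr2:34771840-34772089, plus strand): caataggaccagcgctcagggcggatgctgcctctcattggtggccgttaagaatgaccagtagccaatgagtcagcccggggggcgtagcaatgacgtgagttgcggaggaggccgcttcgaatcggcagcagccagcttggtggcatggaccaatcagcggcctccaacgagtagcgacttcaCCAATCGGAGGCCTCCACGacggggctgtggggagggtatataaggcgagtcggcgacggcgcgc
Calr (chr8:84846932-84847181, minus strand): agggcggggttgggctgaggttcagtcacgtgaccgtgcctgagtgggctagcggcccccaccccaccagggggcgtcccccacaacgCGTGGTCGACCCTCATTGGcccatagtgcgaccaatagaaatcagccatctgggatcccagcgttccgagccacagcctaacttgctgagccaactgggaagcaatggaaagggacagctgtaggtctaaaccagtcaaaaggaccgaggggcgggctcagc

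Most genes of acute phase and plasma proteins, which the liver secretes, were also higher. Not all secreted products rose: 6 of 7 major urinary protein genes fell, as given below. Of 21 acute phase genes 17 rose and 0 fell (median 1.27; 12 and 1 on library totals), and of 25 plasma complement and coagulation genes 19 rose and 0 fell (median 1.19; 15 and 2 on library totals). Complement C3 was 2047, 2622 and 1901 CPM with vector and 9868, 9267 and 7871 CPM with FH, 4.11-fold higher with no overlap (adjusted p = 3.09e-04). Itih4, C4b and kininogen (Kng1) were 4.21-fold, 2.88-fold and 2.75-fold higher. Serum amyloid A (Saa1), a marker of acute inflammation, was 84.7, 46.7 and 79.9 CPM with vector and 136, 195 and 179 CPM with FH (1.27, SE 0.24, adjusted p = 0.00354). Of 18 hepatokine genes 5 rose (27.8%), near the 24.2% of all autosomal genes, and 1 fell. Fetub was 2.55-fold higher. The selenium carrier Selenop was 1.70-fold lower, a call lost without vector 1, vector 3, FH 1, FH 2 or FH 3 (adjusted p = 0.0847 to 0.133). Without vector 3 8 of the hepatokine genes rose, and on library totals 3 rose and 1 fell.

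Carbohydrate genes rose more often than they fell under TMM. Of 22 genes of glucose entry and glycolysis 15 rose and 2 fell (median 1.02); 8 rose and 3 fell on library totals (median 0.47). Gckr, a regulatory protein of hepatic glucose metabolism, was 1.999-fold lower, from 378, 397 and 398 CPM to 181, 191 and 215 CPM. The phosphofructokinase Pfkl was 1.98-fold higher and Pfkfb2, which makes its allosteric activator, 5.27-fold lower. Of 19 genes of gluconeogenesis and glycogen 8 rose and 3 fell (median 0.49), against 4 and 5 on library totals (median -0.07), and 1 fell without any 1 FH library. Pck1, the carboxykinase that commits oxaloacetate to glucose, was 1683, 1237 and 1215 CPM with vector and 2594, 2209 and 2277 CPM with FH (0.78, SE 0.18, adjusted p = 0.00937), a call lost on library totals (0.21, adjusted p = 0.345). G6pc, the glucose-6-phosphatase, was 393, 634 and 326 CPM with vector and 537, 394 and 452 CPM with FH and did not pass (adjusted p = 0.926), while its transporter partner Slc37a4 was 2.68-fold higher. Liver glycogen phosphorylase Pygl was 2.12-fold higher, and Creb1, which switches on gluconeogenic genes, 2.33-fold lower. Of 16 insulin and leptin signalling genes 4 rose and 2 fell, with 8 and 2 without vector 2 and 0 and 5 on library totals. Akt2 was 1.63-fold and Foxo3 1.59-fold higher, and Pik3ca 1.47-fold lower. The Akt2 call was lost on library totals (0.14, adjusted p = 0.302), and so was that of Foxo3 on library totals (0.10, adjusted p = 0.477).

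Genes of nitrogen metabolism, where the urea cycle releases fumarate, rose with 19 of 24 and fell with 0 (median 1.10); 11 rose and 2 fell on library totals (median 0.53). Ass1, which makes the precursor that is split to arginine and fumarate, was 1826, 2587 and 1026 CPM with vector and 5860.4, 5172 and 5174 CPM with FH (1.57, SE 0.32, adjusted p = 0.00481). All 3 FH libraries were at 5172 CPM or more, above the highest vector library. Ornithine aminotransferase (Oat) was 469.9, 564 and 480.2 CPM with vector and 2502, 1735 and 1873 CPM with FH (2.01, SE 0.19, adjusted p = 2.34e-04), and Hgd, in tyrosine breakdown, whose pathway also ends in fumarate, was 2.27-fold higher. Of 17 genes of the methionine cycle and one-carbon metabolism 11 rose and 1 fell (median 0.98; 10 and 3 on library totals). Mthfd1 and Sardh were 2.87-fold and 3.02-fold higher, and Mat2a, the form of S-adenosylmethionine synthetase found mainly outside adult hepatocytes, was 1.59-fold lower, a call lost without FH 1 or FH 2 (adjusted p = 0.055 to 0.0648).

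Fumarate can modify KEAP1 and so release the antioxidant factor NRF2, which gives its target genes a place here. Of 22 genes 13 rose and 0 fell (median 0.78), with 14 and 1 without vector 2 (median 0.54) and 7 and 5 on library totals (median 0.22). On library totals without vector 2, 7 rose and 7 fell (median -0.04). Nqo1, a quinone reductase and standard NRF2 target, was 22.6, 5.69 and 27.9 CPM with vector and 34.2, 28.3 and 45.7 CPM with FH and did not pass (0.94, SE 0.48, adjusted p = 0.137), and passed without vector 2 (0.53, adjusted p = 0.0417) and with the replicate number as a block (1.16, adjusted p = 0.0367). Gclc, of glutathione synthesis, was 571, 654 and 917 CPM with vector and 675, 709 and 631 CPM with FH (adjusted p = 0.726) and passed as lower on library totals (-0.64, adjusted p = 0.0166). The ferritin light chain Ftl1 was 2.12-fold and Keap1 1.78-fold higher, the Keap1 call being lost on library totals (0.27, adjusted p = 0.0802). Of 27 glutathione transferases and glucuronosyltransferases 13 rose and 1 fell (6 and 7 on library totals), with Gstm2 3.13-fold and Gstt3 4.01-fold higher. Ugt1a1 was 3.76-fold higher and Ugt1a6a 4.97-fold lower. These genes share exons, so the counting could move reads between them. Of 24 xenobiotic cytochromes P450 and their receptors 15 rose and 1 fell (median 1.24; 10 and 4 on library totals), among them Cyp2d26 (2.67-fold) and Cyp3a13 (2.41-fold), while the receptor CAR (Nr1i3) was 1.45-fold lower.

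In bile acid synthesis and transport, 5 of 21 genes rose and 2 fell, 10 and 2 without vector 2 and 4 and 9 on library totals. Cyp7a1, the rate-limiting enzyme of bile acid synthesis, was 98.4, 65.6 and 91.8 CPM with vector and 86.5, 92.4 and 83.3 CPM with FH and did not pass under TMM (adjusted p = 0.867), but passed as lower on library totals (-0.53, adjusted p = 0.0273). Cyp8b1, which sets the share of cholic acid, was 217, 87.6 and 325 CPM with vector and 617, 822 and 651 CPM with FH (1.73, SE 0.42, adjusted p = 0.00977). The bile acid uptake carrier Slc10a1 was 2.83-fold higher, and Slco1b2, a carrier of organic anions, 2.08-fold lower, from 1448, 1582 and 1550.2 CPM to 797, 699.6 and 703 CPM. The groups did not overlap for Cyp8b1, Slc10a1 or Slco1b2.

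Sex-biased liver genes, which follow the sex-specific rhythm of growth hormone, moved in the direction of the sex transcripts. Of 22 female-biased autosomal genes tested 13 rose and 0 fell (median 1.92; 8 rose without FH 1), and of 15 male-biased genes 0 rose and 8 fell (median -2.62). The male-biased list depended on vector 2, with 1 rising and 5 falling without it (median -0.28), and on each FH library, with 5, 3 and 3 falling without FH 1, 2 and 3. On library totals 10 female-biased genes rose and 1 fell, and 0 male-biased genes rose and 12 fell. Slco1a1, a steroid and anion carrier of the male liver, was 14.8, 699 and 17.1 CPM with vector and 2.46, 1.71 and 1.25 CPM with FH, with vector 2 far above the other vector libraries (-7.08, SE 1.71, adjusted p = 0.00989; -3.13 without vector 2). The urinary pheromone protein Mup20 was 3226, 6588 and 1262 CPM with vector and 140.0, 199 and 101 CPM with FH (-4.66, SE 0.62, adjusted p = 7.54e-04; -3.92 without vector 2). Of 7 major urinary protein genes 0 rose and 6 fell (median -3.53), and 3 fell without vector 2 (median -1.82), 2 without FH 2 and 2 without FH 3. These genes are near-identical copies among which the counting could split reads, so the level of a single copy is uncertain. On library totals 0 rose and 6 fell. Hsd3b5, a male-specific steroid dehydrogenase, did not pass the filter on low counts: it had 6355 counts in vector 2 and 1 and 0 in vector 1 and 3, and 1, 1 and 1 in the FH libraries.

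Among female-biased genes, Cyp2b9 was 213, 0.880 and 367 CPM with vector and 739, 726 and 701 CPM with FH. Vector 2 was far below vector 1 and 3, and Cyp2b9 passed only without vector 2 (adjusted p = 0.24 with and 7.28e-04 without it, log2 fold change 1.34). A1bg, a plasma glycoprotein gene, was 0.383, 0.117 and 0.403 CPM with vector and 170.1, 30.9 and 17.0 CPM with FH (7.89, SE 1.19, adjusted p = 0.00129), and its log2 fold change was 6.31 without FH 1. Prlr, the prolactin receptor, was 64.2, 90.1 and 79.1 CPM with vector and 296, 188 and 185 CPM with FH (1.52, SE 0.22, adjusted p = 0.00108). All FH libraries were above the vector libraries in both. The sulfotransferases Sult2a1 and Sult2a2 had 0 and 3 counts over the 3 vector libraries and 2600 and 7335 over the FH libraries, but in FH 2 they were at 0.826 and 4.57 CPM against 72.5 and 226 CPM in FH 1. Against a floor of 3 counts over the vector group Sult2a1 was at least 768-fold higher, and for Sult2a2 the ratio was 2167 (95% exact interval for counting error 741 to 10509). In the growth hormone and IGF axis 4 of 16 genes rose and 3 fell, against 3 and 6 on library totals. Igf1 was 350.3, 488 and 307 CPM with vector and 530.2, 289 and 269.8 CPM with FH and did not pass (adjusted p = 0.854), while Igfbp3 was 2.37-fold higher and the feedback inhibitor Socs2 3.15-fold lower.

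**Figure D4:**
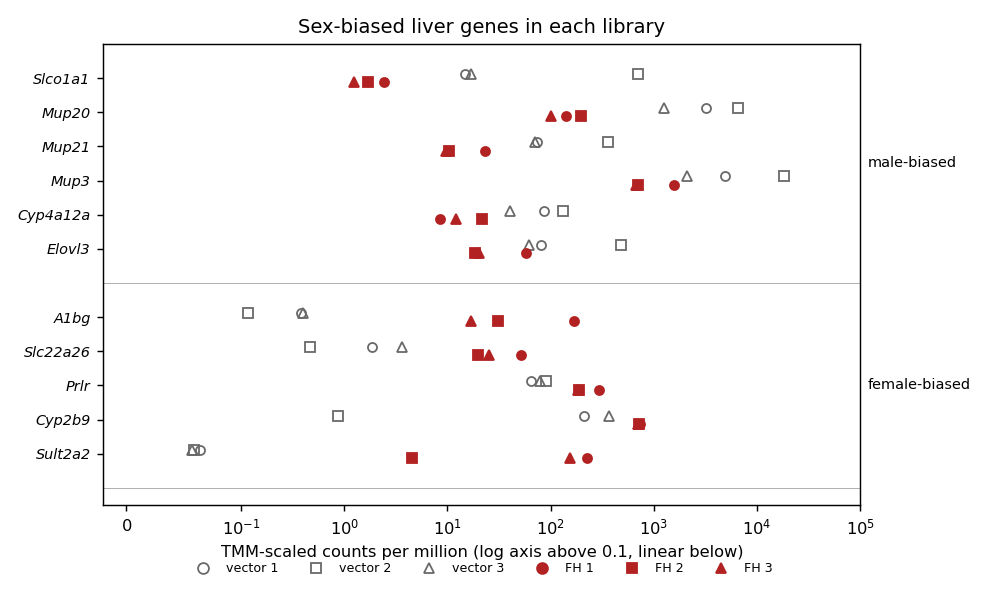
Male-biased (above) and female-biased (below) liver genes in each library, in TMM-scaled CPM (log axis above 0.1 and linear below it). Open grey symbols are vector and filled red symbols FH libraries. Vector 2 (open squares) is the highest library for Slco1a1, Mup20, Mup21, Mup3, Cyp4a12a and Elovl3 and the lowest vector library for Slc22a26 and Cyp2b9, and FH 2 is the lowest FH library for Sult2a2.

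Antigen presentation genes rose with 12 of 17 and fell with 1 (median 1.21; 9 and 2 on library totals). The class I heavy chain H2-K1 was 581, 572 and 670.0 CPM with vector and 1971, 1839 and 1617 CPM with FH (1.57, SE 0.15, adjusted p = 2.54e-04) and Tapbp, which loads peptide onto it, was 2.69-fold higher, while Nlrc5, the transactivator of class I genes, was 2.89-fold lower. No overlap was seen in these 3. Of 26 interferon-stimulated genes 8 were higher and 5 lower (2 and 11 on library totals), with 3 lower without FH 2 or FH 3: Igtp was 2.49-fold higher, and Oas2 7.02-fold and Mx1 2.82-fold lower. Cell cycle and DNA replication genes rose with 21 of 26 and fell with 1 (median 1.31; 20 rose without vector 2, 13 rose and 1 fell on library totals). Their levels were low: Cdc20, an activator of mitotic exit, was 1.53, 2.17 and 1.38 CPM with vector and 7.202, 6.94 and 7.05 CPM with FH (2.05, SE 0.22, adjusted p = 3.60e-04), and the replication genes Mcm6 and Rrm2 were 3.19-fold and 3.71-fold higher.

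Markers of other liver cells differed between the groups too. Hepatocyte markers rose with 8 of 11 and fell with 0, with a summed level of 67142 to 81021 CPM of library total with vector and 125592 to 140284 with FH, most of it Alb; 4 rose and 0 fell on library totals. Endothelial markers rose with 10 of 18 and fell with 2 (summed 623 to 735 against 522 to 672). On library totals 3 rose and 6 fell, beside 6.77% and 51.0% of all autosomal genes. Stellate cell and fibroblast markers rose with 10 of 17 and fell with 1 (summed 562 to 600.3 against 572 to 741), with 7 and 3 on library totals. The collagen genes Col1a1 and Col1a2 were 3.36-fold and 3.01-fold higher, Col1a2 at 14.6, 15.8 and 14.7 CPM with vector and 43.2, 49.0 and 43.6 CPM with FH. Among macrophage markers Cd68 was 2.50-fold and C1qa 1.93-fold higher, the C1qa call being lost on library totals (0.39, adjusted p = 0.0831). Lymphocyte markers rose with 5 and fell with 2 of 16 (summed 49.9 to 64.6 against 19.8 to 41.4), with 2 and 3 on library totals. Without vector 3 2 of them rose, and without FH 2 or FH 3 1. Of cholangiocyte markers none of 8 passed with all 6 libraries (edgeR; 0 at an unadjusted p under 0.05 and 0 by DESeq2), 3 rose without vector 2, and 0 rose and 1 fell on library totals. Markers of hepatocytes, endothelial cells, macrophages and stellate cells were thus present in all 6 libraries, which are labelled hepatocyte, and in bulk RNA more cells of a type and more RNA per cell cannot be told apart. The neutrophil gene Ly6g had 0 to 3 counts, and the pancreatic genes Cpa1, Cpb1, Ctrb1 and Pnlip had 0 in every library. The part of the non-hepatocyte cells in the antigen presentation and cell cycle results was not tested. Of the zonal hepatocyte markers 8 of 15 pericentral and 7 of 13 periportal genes rose and 0 fell in each. On library totals 6 pericentral genes rose and 6 fell, and 4 periportal genes rose and 0 fell.

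Noncoding RNA of the nucleus and regulators of splicing were lower with FH. Of 9 nuclear long noncoding RNAs 8 fell and 1 rose (median -3.33; 8 and 0 on library totals, median -3.87). Malat1, retained in nuclear speckles, was 487, 509 and 395 CPM with vector and 13.4, 19.2 and 35.4 CPM with FH (-4.35, SE 0.37, adjusted p = 1.76e-04), a 20.4-fold fall with no overlap. Neat1, the scaffold of paraspeckles, was 10.1-fold lower and Kcnq1ot1, an imprinted antisense RNA, 14.0-fold lower. Of 25 splicing regulators and hnRNP genes 21 fell and 1 rose (median -1.26; -1.14 without vector 2), with 23 and 0 on library totals (median -1.82). The kinase Clk4, which phosphorylates SR proteins, was 79.3, 85.9 and 75.4 CPM with vector and 13.7, 11.6 and 14.999 CPM with FH (-2.58, SE 0.13, adjusted p = 8.99e-05), Clk1 was 5.80-fold lower and the SR protein gene Srsf11 4.85-fold lower, from 151, 185 and 158 CPM to 33.6, 30.6 and 37.8 CPM. The groups did not overlap in any of these genes, and all of these calls held without vector 2. The share of counts in long noncoding RNA and the number of genes detected at equal depth, given above, differed between the groups in the same direction, and their part in these falls was not tested.

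Dioxygenases that use 2-oxoglutarate, which fumarate can inhibit at the protein level, fell more often than they rose: 9 of 16 enzymes of chromatin and RNA fell and 2 rose (median -0.44; 13 and 1 on library totals). Tet2, which oxidises methylcytosine, was 26.3, 33.5 and 24.4 CPM with vector and 3.76, 3.86 and 5.45 CPM with FH (-2.68, SE 0.20, adjusted p = 1.43e-04), and the histone demethylases Kdm7a and Kdm5a were 3.37-fold and 2.22-fold lower. Fto, an RNA demethylase, was 2.17-fold higher. In the hypoxia list 5 of 16 rose and 3 fell (0 and 7 on library totals), and 3 rose without FH 2 or FH 3. Vegfa, the endothelial growth factor and a standard target of hypoxia-inducible factor, was 257, 317 and 236 CPM with vector and 48.6, 54.6 and 66.2 CPM with FH (-2.26, SE 0.17, adjusted p = 1.43e-04), 4.78-fold lower, and the HIF-induced demethylase gene Kdm3a 2.59-fold lower. The glucose transporter Slc2a1 was 1.51-fold and the prolyl hydroxylase Egln1 1.65-fold higher under TMM, and their log2 fold changes on library totals were 0.04 and 0.16. The Slc2a1 call was lost without FH 2 (adjusted p = 0.0586).

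Cytosolic ribosomal protein genes fell with 25 of 72 (34.7%) and rose with 3 (median -0.44), while 27.7% of all autosomal genes fell. The counts of the list moved with single libraries. Without vector 2 22 fell and 14 rose (median -0.14), beside 28.4% and 26.4% of all autosomal genes. The falls numbered 9 without FH 2 and 10 without FH 3, while on library totals 58 fell and 1 rose (median -1.01). Their share of all counts was 3.17% in vector 2, 1.87 to 2.17% in vector 1 and 3 and 1.15 to 1.24% in the FH libraries. Rps24 was 545, 923 and 470.2 CPM with vector and 288, 226 and 216 CPM with FH (-1.41, SE 0.27, adjusted p = 0.00339) and Rpl5 2.38-fold lower, and both calls held without vector 2. Proteasome subunits rose with 18 of 31 and fell with 2 (median 0.33). On library totals 2 rose and 11 fell (median -0.23), where 51.0% of all autosomal genes fell (median -0.57). The subunits went in both directions, with Psmd2 1.89-fold higher and Psmc6 2.16-fold lower.

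Core clock genes, which depend on the hour of sampling, were 2 of 15 higher and 3 lower, 3 and 7 without vector 2, and 0 and 5 on library totals. Arntl, the gene of BMAL1, was 4.79, 24.4 and 6.57 CPM with vector and 15.005, 10.96 and 5.25 CPM with FH and did not pass (adjusted p = 0.807). Dbp, a clock output gene of the opposite phase, was 39.3, 0.469 and 40.5 CPM with vector and 12.8, 17.3 and 39.4 CPM with FH and did not pass (adjusted p = 0.88). Vector 2 was the highest of the 6 for Arntl and the lowest for Dbp. Without it their log2 fold changes went from -0.20 to 0.88 and from -0.20 to -0.76 (adjusted p = 0.0762 and 0.109). Clock was 59.5, 110.1 and 59.8 CPM with vector and 33.6, 32.7 and 25.8 CPM with FH (-1.32, SE 0.25, adjusted p = 0.00367; -0.94 without vector 2), and Nr1d1, the gene of REV-ERB alpha, was 1.88-fold higher, a call lost on library totals (0.35, adjusted p = 0.148). Of 13 clock output genes 2 rose and 0 fell, 4 and 1 without vector 2, and 0 and 1 on library totals. The hour of sampling of each liver was not given in the sources used here.

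The 10 protein-coding autosomal genes with the highest fitted rise and the 10 with the deepest fall, among those called without overlap, were at low counts in 1 group in most cases. Of the rises, Hamp2, a hepcidin, was 2.62, 0.352 and 0.749 CPM with vector and 73.7, 22.6 and 22.8 CPM with FH (5.02, SE 0.74; 6.17 without vector 1 and 4.23 without FH 1). Cyp2b10, the standard target of the receptor CAR, was 1.79, 0.293 and 0.807 CPM with vector and 37.4, 16.1 and 10.1 CPM with FH (4.47, SE 0.67; 5.26 without vector 1 and 3.80 without FH 1). The oestrogen sulfotransferase Sult1e1 was 2.62, 0 and 1.498 CPM with vector and 31.6, 11.8 and 41.9 CPM with FH (4.39, SE 0.82; 5.24 without vector 1). FH 1 was the highest library for Hamp2 and Cyp2b10. Cyp2c69 was 0.320, 5.16 and 0.231 CPM with vector and 94.7, 11.5 and 8.80 CPM with FH (4.31, SE 1.27; 7.12 without vector 2 and 2.42 without FH 1), and its call was lost without vector 1, vector 3 or FH 1 (adjusted p = 0.0518 to 0.106). The neutrophil granule gene Ngp had 1 count in the vector and 131 in the FH group, a ratio of 116 (95% exact interval 20.5 to 4619.8), and Eci3, a peroxisomal enoyl-CoA isomerase, 2 and 92, a ratio of 40.8 (10.97 to 342). A1bg, Sult2a1 and Sult2a2, described above, complete the 9 rises given.

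Of the falls, vector 2 was far above the other vector libraries in 5: Slco1a1, described above, Clec2h, Slc22a28, Mup14 and Vmn1r90. The C-type lectin gene Clec2h was 3.26, 33.0 and 0.749 CPM with vector and 0.382, 0.0551 and 0.25 CPM with FH (-5.70, SE 1.51; -3.05 without vector 2). The anion transporter gene Slc22a28 was 2.36, 43.9 and 1.27 CPM with vector and 0.382, 0.441 and 0.150 CPM with FH (-5.60, SE 1.53; -2.45 without vector 2). Mup14 was 1.66, 37.5 and 0.864 CPM with vector and 0.764, 0.0551 and 0.050 CPM with FH (-5.52, SE 1.68; -2.09 without vector 2). The Mup14 call was lost without vector 2, FH 1, FH 2 or FH 3 (adjusted p = 0.0518 to 0.0926), the Clec2h call without FH 1, FH 2 or FH 3 (adjusted p = 0.0503 to 0.0598), and the Slc22a28 call without FH 1, FH 2 or FH 3 (adjusted p = 0.058 to 0.0622). The remaining falls, and Vmn1r90 as well, were near 0 in the FH libraries. Glcci1, a glucocorticoid-induced gene, had 92 counts in the vector and 2 in the FH group, a ratio of vector to FH of 51.9 (95% exact interval 14.0 to 435), Muc6 a ratio of 137 (24.05 to 5437), R3hdml of 48.0 (12.9 to 402), Ankrd61 of 63.2 (10.9 to 2540.0) and the vomeronasal receptor gene Vmn1r90 of 51.9 (17.4 to 255). Without vector 2, which held 108 of its 138 vector counts, the Vmn1r90 ratio was 17.1 (5.32 to 87.6). Catsperg1, a sperm channel subunit, had 59 counts in the vector group and 0 in the FH group, at least 22.2-fold lower against a floor of 3 counts over the group. These intervals cover counting error only.

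**Figure D5:**
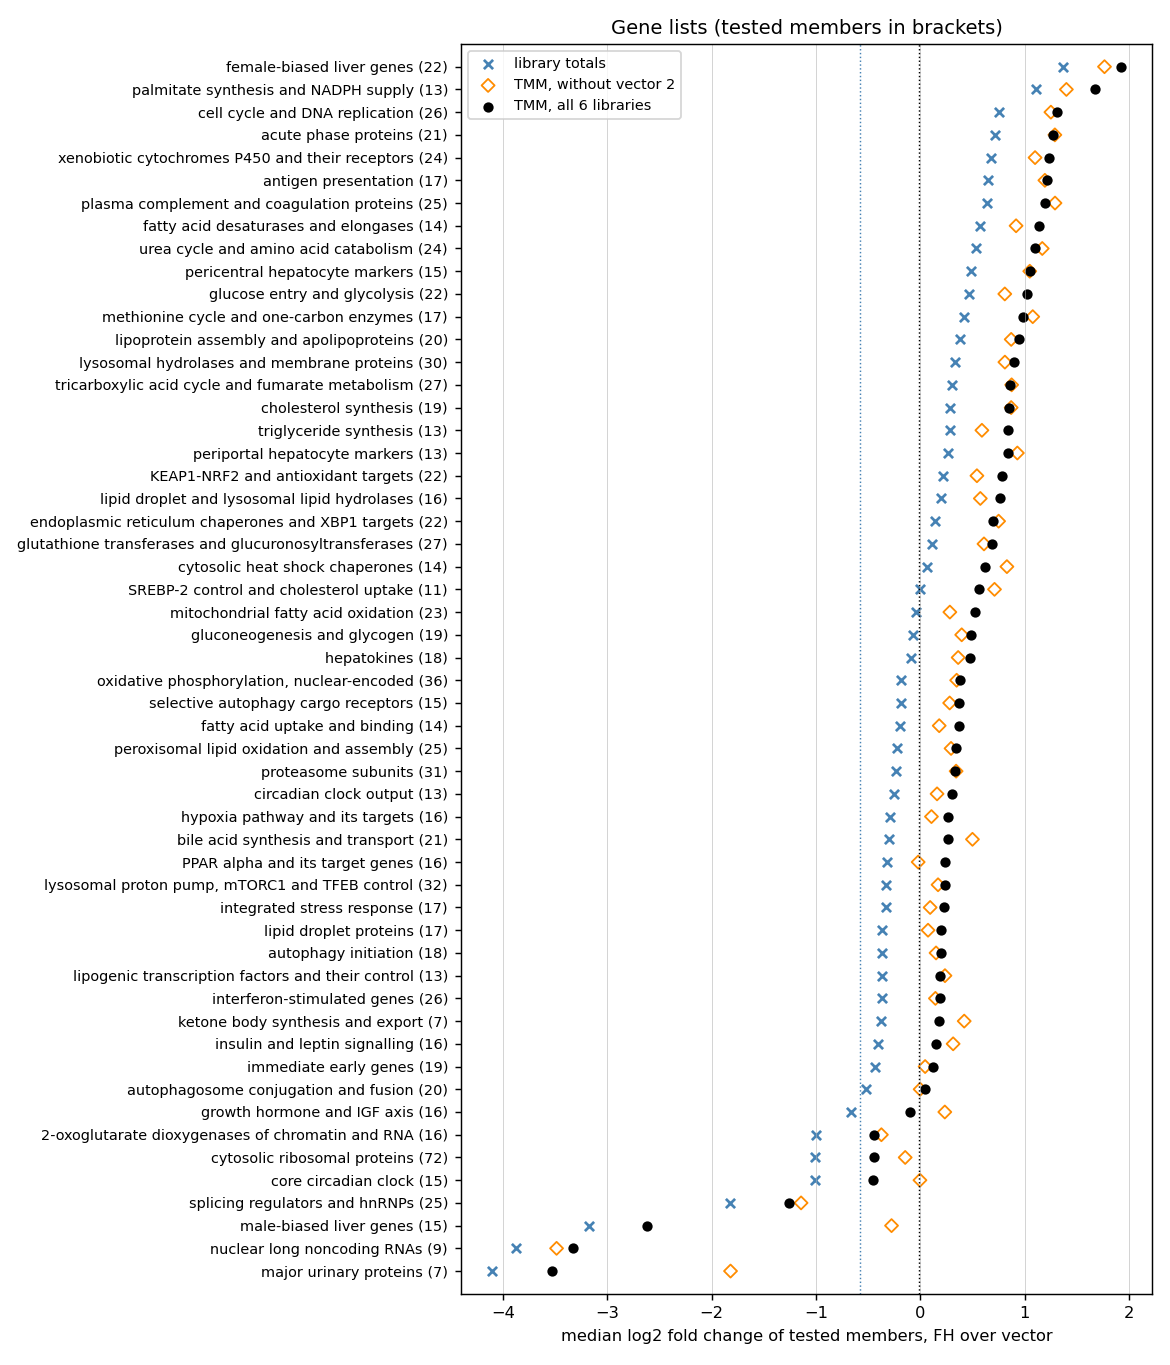
Median log2 fold change of FH over vector for each gene list with 7 or more tested autosomal members, with the number of members in brackets. Filled circles are the TMM fit of all 6 libraries, open diamonds the fit without vector 2 and crosses plain library totals, with dotted lines at the median of all autosomal genes under TMM (-0.02) and library totals (-0.57). Palmitate synthesis stays above 1 in each setting drawn, and is 0.80 on library totals without vector 2, which is not drawn. The male-biased, major urinary protein and clock lists lie closer to 0 without vector 2.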

How the data were processed

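The libraries were aligned with STAR 2.7.11a to GRCm39, per the submitters' processing notes, and the authors deposited whole-number counts per gene, 1 column a library; the counting tool, the annotation and any use of strand were not given in the sources used here. No column of the table was left without a sample. Of 56441 symbols, 49047 matched GENCODE M21 and 1615 RefSeq, which gave each gene's chromosome; genes outside the autosomes entered the fits only. Counts of the 6 libraries were tested with edgeR 4.0.16 in R 4.3.3 (TMM, filterByExpr with a minimum count of 10 and total of 15, quasi-likelihood F test), with Benjamini-Hochberg adjustment over all 14465 genes tested. The script was tested on simulated data. Totals of 12573267 to 23506015 counts set the precision, and intervals cover counting error only.

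Named genes are Fh1, a panel, up to 3 called members of each list in each direction with the smallest adjusted p and a mean of at least 1 CPM, and, among called protein-coding autosomal genes without overlap, the 10 that rose and the 10 that fell the most at a mean of at least 1 CPM in the higher group. The text prints a part of them, and some are not reported here. The members and lists were chosen with earlier results of these data known. Alternatives were DESeq2 1.42.0, other scalings, filters and samples, a replicate block, counts thinned to equal depth, and each library left out. Leaving out vector 2 on library totals was added after seeing the data. Promoter sequences are RefSeq's (GRCm38.p6), another build than that of the counts.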

Additional observations from a re-analysis of the deposited data

How the results depend on the processing

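The number of autosomal genes called ranged from 5501 to 8829 over all alternatives, against 7146, and from 5731 to 7936 with each library left out in turn. The direction of Fh1 and its call were the same under every alternative, with log2 fold changes of 1.77 to 2.55 and of 2.30 to 2.55 with each library left out. The split of the calls turned on the scaling: library totals gave 933 genes higher and 7020 lower, and library totals without vector 2, chosen after seeing the data, gave 1078 and 7751, against 3332 and 3814. With each library left out 2691 to 3821 genes were higher and 3040 to 4115 lower. The cause was not tested. Thinned to equal depth, 6662 genes passed.

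The deviations of same-numbered libraries from their group correlated at -0.07, -0.11 and 0.08, and those of other pairs at -0.23 to 0.21. With so few libraries a group these values are tied together, and they cannot settle whether the replicate numbers paired the libraries. With the replicate number as a block 6551 autosomal genes passed, 3085 higher and 3466 lower, and the log2 fold change of Fh1 was 2.41. Under the block the calls of Elovl3, Xbp1, Gpam, Ppargc1a, Fabp4 and Selenop were lost, Nqo1 passed, and the log2 fold change changed sign to 0.57 for Cidea, 0.0050 for Arntl and 0.42 for Dbp, none of which passed.

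Of the named genes that passed with all 6 libraries under TMM, those that changed sign were Nr1h3, Xbp1, Pnpla2, Slc2a1 and Egln1, each on library totals with or without vector 2. The others below had not passed. On library totals the log2 fold change was -0.17 for Nr1h3, -0.20 for Xbp1, -0.36 for Cidec, -0.040 for Pnpla2, -0.18 for Lipe, -0.54 for Ppara, -0.11 for Apob, -0.45 for Ulk1, -0.49 for Becn1, -0.53 for Map1lc3b, -0.50 for Gabarapl1, -0.25 for Tfeb, -0.093 for Trib3, -0.49 for Fgf21, -0.53 for G6pc and -0.53 for Cyp7a1. On library totals without vector 2 it was -0.13 for Nr1h3, -0.21 for Xbp1, -0.21 for Plin2, -0.92 for Cidec, -0.18 for Pnpla2, -0.31 for Lipe, -0.051 for Mgll, -0.46 for Pnpla3, -0.12 for Cpt1a, -0.80 for Ppara, -0.21 for Apob, -0.48 for Cd36, -0.42 for Ulk1, -0.53 for Becn1, -0.59 for Map1lc3b, -0.46 for Gabarapl1, -0.27 for Tfeb, -0.41 for Trib3, -1.02 for Fgf21, -0.22 for G6pc, -0.048 for Nqo1, -0.69 for Cyp7a1, -0.0066 for Slc2a1, -0.057 for Egln1 and 0.29 for Arntl. With the stricter filter it was -0.067 for Ppara, -0.012 for Becn1, -0.062 for Map1lc3b, -0.029 for Gabarapl1, -0.033 for Fgf21, -0.057 for G6pc and -0.051 for Cyp7a1, after thinning -0.030 for Ppara and -0.011 for Fgf21, and with no filter 0.019 for Igf1. With each library left out in turn the log2 fold change ranged from -0.65 to 0.86 for Cidea, from -0.34 to 0.69 for Cidec, from -0.22 to 0.25 for Ppara, from -0.023 to 0.16 for Map1lc3b, from -0.012 to 0.13 for Gabarapl1, from -0.45 to 1.05 for Fgf21, from -0.13 to 0.38 for G6pc, from -0.21 to 0.16 for Gclc, from -0.10 to 0.17 for Cyp7a1, from -0.43 to 0.16 for Igf1, from -0.56 to 0.88 for Arntl and from -0.80 to 0.25 for Dbp. Among the named genes, Plin4, Mgll, Cpt1a and Nqo1 also passed with no filter and with all 12 libraries in 1 fit, and Apob with no filter. The calls of Ppargc1a and Fabp4 were lost with all 12 libraries, those of Ppargc1a and Slc2a1 after thinning and that of Gpam with the stricter filter. DESeq2 lost none of the calls for which it gave an adjusted p, and gave none for Slco1a1, Cyp2c69, Slc22a28 and Mup14.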

Other observations

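Of 19 immediate early genes, which respond within minutes to stress and growth factors, 2 rose and 0 fell (median log2 fold change 0.12), 3 rose and 2 fell without vector 2 (median 0.05), and 2 rose and 6 fell on library totals. Jund, of the AP-1 complex, was 5.62, 6.51 and 6.97 CPM with vector and 14.2, 14.9 and 15.3 CPM with FH (1.22, SE 0.14, adjusted p = 4.38e-04). Of 6 metallothionein and zinc transporter genes 1 rose and 0 fell, with 3 and 0 without vector 2 and 1 and 3 on library totals. The one that rose, the zinc importer Slc39a4, was 15.1, 18.8 and 22.1 CPM with vector and 60.8, 45.9 and 47.8 CPM with FH (1.46, SE 0.17, adjusted p = 4.66e-04). The FH libraries were above the vector libraries in both genes.

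Of 5 neutrophil markers 3 rose and 1 fell, with a summed level of 14.6 to 17.0 CPM of library total with vector and 10.9 to 21.4 with FH; 2 rose and 1 fell on library totals. S100a8, a subunit of calprotectin, was 1.79, 1.88 and 2.36 CPM with vector and 3.98, 6.83 and 5.50 CPM with FH (1.43, SE 0.27, adjusted p = 0.00311), and Csf3r, the receptor that drives neutrophil production, was 6.01, 7.45 and 7.26 CPM with vector and 2.13, 4.35 and 4.0 CPM with FH (-0.98, SE 0.28, adjusted p = 0.0192). Of 4 red cell markers 1 rose and 1 fell, with a summed level of 313 to 413 against 141 to 205 CPM, and 1 and 3 on library totals. The haemoglobin genes Hba-a2 and Hbb-bs, members of near-identical pairs, went in opposite directions: Hba-a2 was 3.07-fold higher and Hbb-bs 1.55-fold lower, a call lost without vector 3, FH 1 or FH 3 (adjusted p = 0.0541 to 0.0729).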
